A study of Mus musculus with 6 samples.

Results

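The genes described here are 8 transcription factor genes of fat cell formation, namely Pparg, Cebpa, Cebpb, Cebpd, Klf15, Zfp423, Ebf1 and Ebf2. They were taken by gene symbol from a deposited table of 20325 genes, which lists all 8. Their RNA was measured by sequencing in C3H10T1/2, a multipotent cell line derived from the mesenchyme of C3H mouse embryos, at passage 10 to 15. The knockdown group (3 samples) was parental cells in which Ring1a and Ring1b were targeted together by siRNA (small interfering RNA), and the control group (3 samples) was parental cells given a scramble siRNA. Ring1a and Ring1b, encoded by Ring1 and Rnf2, are the enzymes with which Polycomb repressive complex 1 (PRC1) adds ubiquitin to histone H2A, a mark of silent developmental genes. The comparison asks what depletion of both enzymes does to gene expression in these cells.

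Fat cell formation is driven by a cascade of transcription factors. Commitment factors such as ZFP423 and the EBF proteins mark mesenchymal cells that can become preadipocytes. On an adipogenic stimulus C/EBPβ and C/EBPδ are induced first and switch on PPARγ and C/EBPα, which then maintain each other and turn on the genes of lipid storage. KLF15 acts within this cascade as an activator. C3H10T1/2 cells are known to form fat cells when exposed to BMP4 and an adipogenic stimulus; the labels name ordinary growth medium with serum and no adipogenic stimulus.

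Of the 8 factors, Pparg fell in the knockdown and none of the others passed the test in either direction. Ebf1 was lower in every knockdown library than in every control, but its size depended on knockdown replicate 2 and it missed the threshold. Cebpa, Cebpb, Cebpd, Klf15, Zfp423 and Ebf2 had overlapping groups. The test was limma on log2(value + 1) over the 12085 genes whose mean over all libraries was 10 or more, at a Benjamini-Hochberg adjusted p of 0.05. It called 1 of the 8 lower and 0 higher (2 lower and 0 higher at an unadjusted p under 0.05), where it called 1.78% of all tested genes lower and 3.20% higher. The groups did not overlap in 2 factors, both lower in the knockdown, against 23.7% of all tested genes that were lower in this way and 20.5% that were higher. The share of factors lying lower without overlap is near that background.

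The table holds estimated read counts per gene after the authors' median normalization, and every level below is in that normalized unit. Depth before scaling, estimated from the value of 1 read in each library, was 4580090 to 23196500 reads in the knockdowns and 5447200 to 51801600 in the controls. Knockdown replicate 2 stood apart. It had the least depth, its log2 values correlated at 0.821 to 0.867 across genes with those of the other 5 libraries, which among themselves reached 0.944 to 0.993, and 20.6% of its total came from ribosomal protein genes, where the others had 5.06 to 5.80%. The factors and the lists are therefore given with and without it; without it limma called 23.8% of 11995 tested genes higher and 26.1% lower. Rnf2 stood at 129, 76.5 and 152 in the knockdown libraries, against 815, 829 and 799 in the controls, while Ring1 stood at 162, 268 and 186 in the knockdown libraries, against 336, 386 and 374 in the controls. Rnf2 passed the test (limma adjusted p = 0.00946) and Ring1 did not with all libraries (limma log2 fold change −0.86, adjusted p = 0.104); without knockdown replicate 2 Ring1 passed (−1.06, adjusted p = 3.86e-06). All 10 markers fixed for mesenchymal fibroblasts were expressed. In RNA from a whole culture, fewer cells of a type and less RNA per cell cannot be told apart. The labels do not say whether replicates were separate cultures, so p-values reflect the spread among these 6 samples, which may be technical only.

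**Figure D1:**
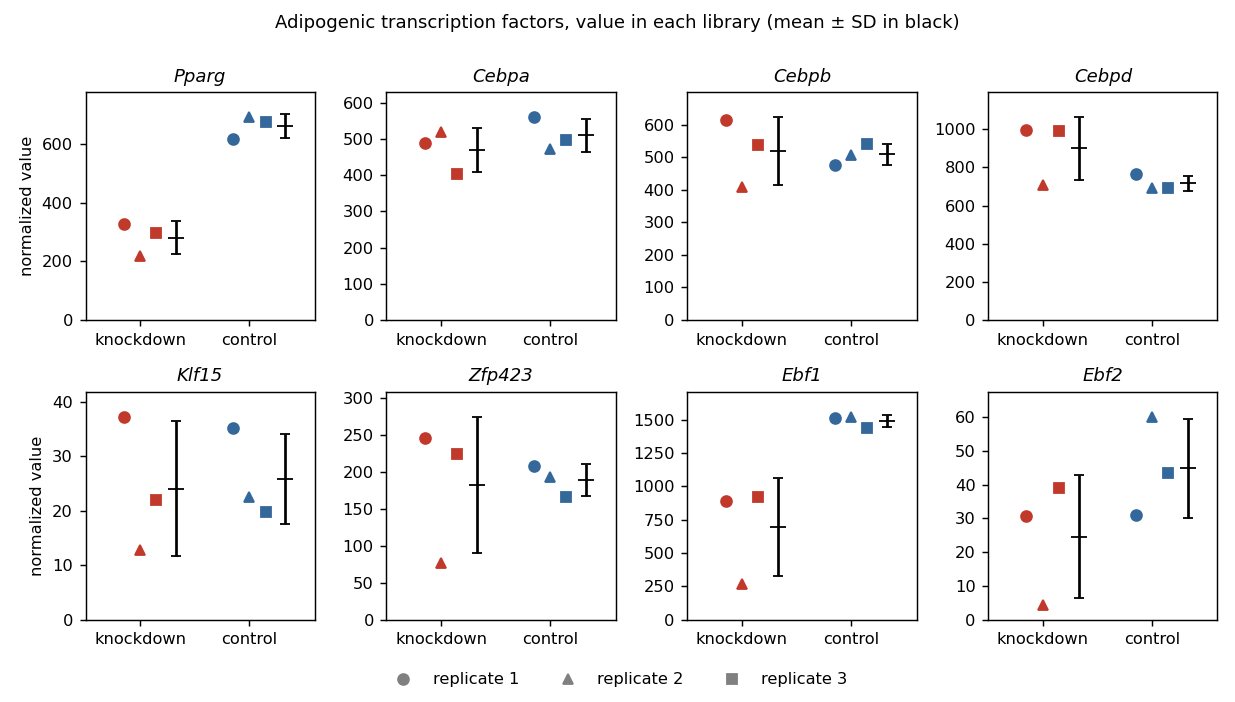
Normalized value of each of the 8 factors in the 3 knockdown (red, left) and 3 control (blue, right) libraries, with the mean and SD in black; each panel has its own linear axis from 0. The groups are apart in Pparg and Ebf1, and knockdown replicate 2 (triangle) is the lowest knockdown value in every factor except Cebpa.

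Pparg, on chromosome 6, encodes the nuclear receptor PPARγ, without which fat cells do not form. It was expressed in these undifferentiated cells and fell in the knockdown. Pparg stood at 326, 217 and 298 in knockdown replicates 1, 2 and 3, and at 616, 692 and 675 in control replicates 1, 2 and 3. Every knockdown value lay below every control value, and the gap between the groups was wider than the spread within either. The mean was 280.1 ± 56.5 in the knockdowns and 661 ± 39.7 in the controls (SD, n = 3 each), a 2.36-fold lower level. On the log2 scale this was −1.25 (SE 0.20, limma adjusted p = 0.0281, lower in 3 of 3). Only 2.96% of tested genes had a log2 fold change as low or lower. When knockdown replicate 2 was left out, the log2 fold change was −1.08 (SE 0.08, limma adjusted p = 4.82e-07).

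The call on Pparg depended on the libraries used. It was lost without knockdown replicate 1 or 3 (limma adjusted p = 0.0877 and 0.0887), without control replicate 1, 2 or 3 (0.140, 0.158 and 0.172) and with every library scaled to the same total (0.116). Without any one control, limma called 0 of all tested genes in either direction. It called 7 higher and 21 lower without knockdown replicate 1, and 37 and 57 without knockdown replicate 3. The losses in fits without a library were thus not particular to Pparg. Across 16 alternatives the log2 fold change lay between −1.40 and −1.01. The authors' deposited table of differential genes, in which the smallest fold is 4.01 for higher and 4.13 for lower genes, holds 0 of the 8 factors.

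Pparg is transcribed from several starts. The upstream starts give PPARγ1, which many tissues make, and the start nearest to the shared coding exons gives PPARγ2, the isoform largely restricted to fat cells. The deposited values are per gene, so the fall cannot be assigned to either. An upstream window and the PPARγ2 window are shown because Pparg is the factor that fell and because they differ in CpG content. CpG-rich DNA is where PRC1 is known to gather, but binding at Pparg was not examined here. Both come from RefSeq on GRCm38.p6, plus strand, 5′ to 3′, with CpG dinucleotides in capitals. The first covers chr6:115362099-115362291 and stops before the first annotated exon; the second covers chr6:115421816-115422065, the 250 bases before the start. Reads were counted on mm9, so these positions apply to the sequences alone.
Pparg upstream start: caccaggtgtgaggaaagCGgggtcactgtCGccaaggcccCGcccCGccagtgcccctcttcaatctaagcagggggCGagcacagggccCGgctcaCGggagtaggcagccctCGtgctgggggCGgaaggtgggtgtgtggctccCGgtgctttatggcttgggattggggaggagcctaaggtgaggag
Pparg2 start: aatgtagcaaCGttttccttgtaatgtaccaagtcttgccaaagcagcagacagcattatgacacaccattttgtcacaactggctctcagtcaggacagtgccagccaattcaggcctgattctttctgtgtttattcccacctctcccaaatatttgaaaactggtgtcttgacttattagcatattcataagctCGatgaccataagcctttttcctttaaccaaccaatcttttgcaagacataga
The printed upstream stretch holds 10 CpG dinucleotides and the printed PPARγ2 stretch holds 2. Over the full 250 bases before each start, the ratio of observed to expected CpG was 0.505 for that upstream start and 0.204 for the PPARγ2 start, against a median of 0.374 over 32851 promoter windows. Of all windows, 40.2% had a ratio at or above that of the printed upstream start, so it was not among the most CpG-rich. A further Pparg start, not printed, had the highest ratio of the Pparg starts, 0.896.

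The PPARγ2 stretch also holds letters that match a C/EBP pattern. The pattern TTNNGCAA, searched on both strands, matched at TTTTGCAA, whose first base lies 16 bases before the start, and at TTGCCAAA (reverse strand), 215 bases before it. Of all 250-base windows, 9.56% hold a match, and among the 10 windows of the 6 factors in the table (Cebpd and Ebf2 are not in it) 2 did, the other being a window of Zfp423. The EBF pattern CCCNNGGG, a palindrome, matched in 2 of the 10 windows, of Cebpb and Zfp423, and in 11.8% of all windows. A direct repeat recognised by PPAR receptors with RXR, AGGTCANAGGTCA on both strands, matched in 0 of the 10 windows and in 0.0335% of all windows. A match is a description of the letters and says nothing about binding.

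Cebpa, on chromosome 7, encodes C/EBPα, the partner with which PPARγ holds the fat cell state. It did not pass the test. Cebpa stood at 490, 519 and 403 in the knockdown libraries, against 561, 474 and 498 in the controls. The highest knockdown value lay above the median control value, so the groups overlapped. The mean was 470.4 ± 60.2 in the knockdowns and 511 ± 45.3 in the controls (SD, n = 3 each; limma log2 fold change −0.12, SE 0.17, adjusted p = 0.648). The 95% interval of the log2 fold change, −0.54 to 0.29, does not reach a change of the size seen in Pparg. The log2 fold change was −0.20 without knockdown replicate 2 (limma adjusted p = 0.118).

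The ratio of the pair within a library hardly depends on how libraries are scaled. The log2 ratio of Pparg to Cebpa was −0.59, −1.25 and −0.44 in the knockdowns and 0.13, 0.55 and 0.44 in the controls. The ratio was thus below 0 in every knockdown library and above 0 in every control library; it is not corrected for transcript length, so its sign does not rank the levels of the pair. The difference of the means was −1.13, with an exact two-sided permutation p of 0.1, the smallest that 3 against 3 can give, or 0.2 after adjustment over 4 ratios. The difference was −0.88 without knockdown replicate 2.

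Cebpb, on chromosome 2, encodes C/EBPβ, an early factor of the cascade and an activator of Pparg. Cebpb stood at 615, 408 and 536 in the knockdown libraries, against 477, 506 and 542 in the controls. The lowest and the highest of the 6 values were both knockdowns, so the groups overlapped. The log2 fold change was 0.01 (SE 0.20, 95% interval −0.47 to 0.49, limma adjusted p = 0.969) and turned to −0.13 with total scaling. With knockdown replicate 2 left out it was 0.18 (95% interval −0.00147 to 0.36, limma adjusted p = 0.0925).

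Cebpd, on chromosome 16, encodes C/EBPδ, the other early factor. Cebpd stood at 997, 708 and 994 in the knockdown libraries, against 764, 693 and 695 in the controls. Knockdown replicates 1 and 3 lay well above the controls, while replicate 2 fell within their range. The mean was 899.6 ± 166 in the knockdowns and 717 ± 40.3 in the controls (SD, n = 3 each; limma log2 fold change 0.31, SE 0.19, adjusted p = 0.389). Without knockdown replicate 2 Cebpd passed, with a log2 fold change of 0.47 (SE 0.06, limma adjusted p = 7.44e-05). It also passed after correction for transcript length (0.50, limma adjusted p = 0.0496). That pass was close to the threshold and used the GENCODE length of 3746 nt. The correction was not run with the RefSeq length of 2260 nt.

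Both early factors are read side by side in the ratio of Cebpb to Cebpd. Its log2 value was −0.70, −0.79 and −0.89 in the knockdowns and −0.68, −0.45 and −0.36 in the controls. All 3 knockdown ratios lay below the controls, knockdown replicate 1 by a small margin (exact two-sided permutation p = 0.1, or 0.2 adjusted over 4 ratios). The difference was −0.30 with all libraries and −0.30 without knockdown replicate 2. The ratio of Cebpa to Cebpb gave no separation, at −0.33, 0.35 and −0.41 in the knockdowns and 0.23, −0.10 and −0.12 in the controls (exact permutation p = 0.6).

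**Figure D2:**
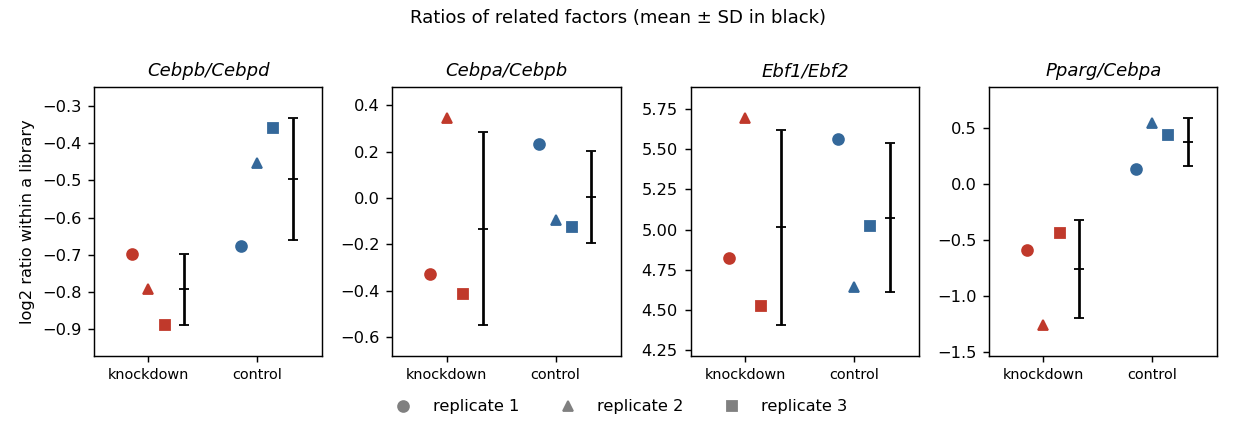
Log2 ratio of related factors within each library, on log2(value + 1), for 3 knockdown (red, left) and 3 control (blue, right) libraries with mean and SD in black. The ratio of Pparg to Cebpa is below 0 in all knockdowns and above 0 in all controls, while the ratios of Cebpa to Cebpb and of Ebf1 to Ebf2 overlap.

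Klf15, on chromosome 6, encodes a zinc finger activator of later fat cell genes and of the glucocorticoid response. It was scarcely expressed. Klf15 stood at 37.3, 12.8 and 22.0 in the knockdown libraries, against 35.2, 22.6 and 19.9 in the controls. The value in knockdown replicate 2 corresponds to 3 reads, with an exact 95% Poisson interval of 2.63 to 37.3 in normalized units, which covers counting error alone and spans all 3 control values. The log2 fold change was −0.18 with all libraries (SE 0.45, limma adjusted p = 0.801) and 0.19 without knockdown replicate 2 (SE 0.31, limma adjusted p = 0.655), so no direction was detectable at this depth.

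Zfp423, on chromosome 8, encodes a zinc finger protein that sets preadipocyte commitment and heightens the response to BMP. Zfp423 stood at 247, 76.5 and 225 in the knockdown libraries, against 208, 193 and 166 in the controls. Knockdown replicates 1 and 3 lay above every control and replicate 2 far below them. The log2 fold change was −0.22 with all libraries (SE 0.47, limma adjusted p = 0.778). Without knockdown replicate 2 it was 0.32 and passed (SE 0.12, limma adjusted p = 0.0357), so its direction turned on that library.

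Ebf1, on chromosome 11, encodes a helix-loop-helix factor that takes part in early adipogenesis and in B cell formation. It had the highest level per kilobase of the 8 in the controls. Ebf1 stood at 894, 271 and 924 in the knockdown libraries, against 1514, 1523 and 1438 in the controls. Every knockdown value was below every control value, and replicate 2 lay far below the other knockdowns. The mean was 696 ± 369 in the knockdowns and 1492 ± 47.0 in the controls (SD, n = 3 each; 2.14-fold lower), and the difference missed the threshold (limma log2 fold change −1.30, SE 0.50, adjusted p = 0.225). Without knockdown replicate 2 the log2 fold change was −0.71 and passed (SE 0.05, limma adjusted p = 8.39e-07), with a mean of 909 in the remaining knockdowns, 1.64-fold below the controls. The change was thus smaller and more even without that library.

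Ebf2, on chromosome 14, encodes a related factor known for preadipocyte and brown fat identity. It was near the lower end of what was tested. Ebf2 stood at 30.6, 4.25 and 39.1 in the knockdown libraries, against 31.1, 60.1 and 43.4 in the controls. The value in knockdown replicate 2 corresponds to 1 read (exact 95% Poisson interval 0.108 to 23.7 in normalized units). Knockdown replicate 3 lay within the control range and replicate 1 just below it. The log2 fold change was −1.24 with all libraries (SE 0.82, limma adjusted p = 0.425) and −0.32 without knockdown replicate 2 (SE 0.27, limma adjusted p = 0.360). The log2 ratio of Ebf1 to Ebf2 was 4.82, 5.69 and 4.53 in the knockdowns and 5.56, 4.64 and 5.02 in the controls (exact permutation p = 0.9), so an unequal change of the pair was not detectable.

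**Figure D3:**
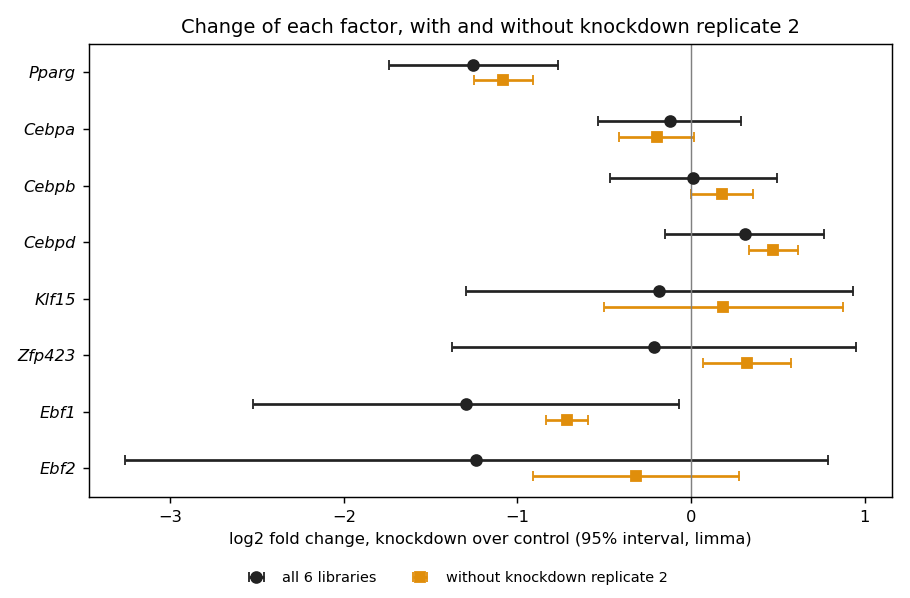
Log2 fold change of each factor, knockdown over control, with its 95% interval from limma, for all 6 libraries (black circles) and without knockdown replicate 2 (orange squares). The intervals of Pparg and Ebf1 lie below 0 in both fits, and Klf15 and Zfp423 change sign between the fits.

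Leaving out knockdown replicate 2 gave 2 factors called lower, Pparg and Ebf1, and 2 called higher, Cebpd and Zfp423. Counts of 2 in each direction of 8 are near the shares of all tested genes in that fit (26.1% lower and 23.8% higher). The same genes were the 2 lower and the 2 higher factors without overlap, against 35.8% and 32.1% of all tested genes. The median log2 fold change of the 8 was −0.20 with all libraries and −0.01 without knockdown replicate 2, against 0.01 and −0.02 over all tested genes.

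Knockdown replicate 2 differed from the other knockdowns with transcript length. Relative to the mean of knockdown replicates 1 and 3, its median log2 difference was 0.81 in the shortest of 4 equal length classes of tested genes (median transcript 850 nt) and −0.84 in the longest (median 4634.5 nt). Ebf2, Zfp423 and Ebf1, whose median transcripts in GENCODE M21 are 4352, 4334 and 3422 nt long, had log2 differences of −2.76, −1.61 and −1.74. The log2 difference was −1.11 for Klf15 (2373 nt), −0.52 for Pparg (1767 nt), −0.49 for Cebpb (1504 nt), −0.49 for Cebpd (3746 nt) and 0.22 for Cebpa (2393.5 nt). The 3 factors furthest down in this library are thus among the 4 with the longest transcripts. The part of length in their values was addressed only by the length-corrected fit, in which Ebf1 had a log2 fold change of −1.14 (SE 0.37, limma adjusted p = 0.130), Ebf2 one of −0.98 (limma adjusted p = 0.389) and Pparg one of −1.34 (SE 0.24, limma adjusted p = 0.0269).

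**Figure D4:**
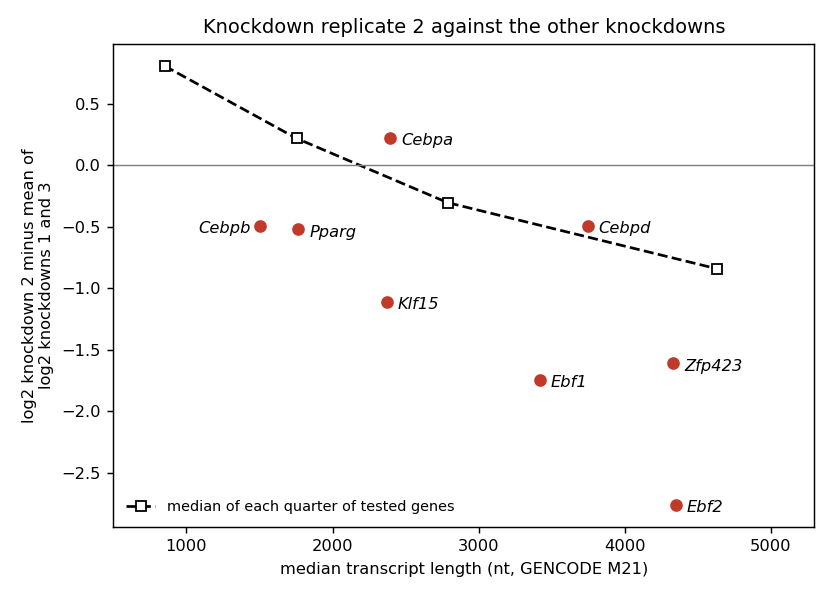
Log2 value in knockdown replicate 2 minus the mean log2 value of knockdown replicates 1 and 3, against median transcript length in nucleotides, for the 8 factors (red) and as the median of each of 4 length classes of tested genes (open squares, dashed). The class medians are 0.81 for the shortest and −0.84 for the longest transcripts, and Ebf2 is the lowest factor at −2.76.

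Levels were compared between genes per kilobase of median transcript length. In the controls Ebf1 came first at 436 per kb (range 420.2 to 445.2), then Pparg at 374 (348.6 to 391.4), Cebpb at 338 (317 to 360.4), Cebpa at 213 (198 to 235), Cebpd at 191 (185 to 204), Zfp423 at 43.7 (38.4 to 48.1), Klf15 at 10.9 (8.37 to 14.8) and Ebf2 at 10.3 (7.14 to 13.8). The control ranges of Pparg and Cebpb, of Cebpa and Cebpd, and of Klf15 and Ebf2 overlapped, so the order within those pairs is not settled. In the knockdowns the order by mean level per kb was Cebpb (346), Cebpd (240.1), Ebf1 (203), Cebpa (197), Pparg (159), Zfp423 (42.2), Klf15 (10.1) and Ebf2 (5.67). Pparg moved to the fifth place, and the range of its 3 knockdown values, 123 to 184 per kb, overlapped that of Cebpa (168 to 217) and that of Ebf1 (79.1 to 269.9). The place of Cebpd depends on the transcript model: with its RefSeq length of 2260 nt, an alternative chosen after seeing the data, its control level was 317 per kb (306.8 to 338) and overlapped that of Cebpb.

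GENCODE M21 places an antisense or opposite-strand gene over 6 of these loci, among them Gm44079 at Pparg, Gm12158 at Ebf1, Tmem189 at Cebpb and Spidr at Cebpd. The sources used here do not give the strand setting of the counting, so reads of those partners could not be told apart from reads of the factors.

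By likeness over the 6 libraries, Pearson's r of log2(value + 1) among tested genes with a mean of at least 50, the genes nearest to Pparg were Spast (r = 0.999), which encodes spastin, a microtubule-severing protein, and Scpep1 (r = 0.998), a serine carboxypeptidase gene. Neither passed the test (log2 fold change −0.59 for Spast and −0.53 for Scpep1). The 6 libraries fall into 2 groups and share the shift of knockdown replicate 2, so these values describe a shared profile and carry no p.

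With all libraries, no gene of the list that works with the factors passed the test. Of 10 tested partners and coactivators, limma called 0 higher and 0 lower (0 and 0 at an unadjusted p under 0.05). Of all tested genes, 3.20% were called higher and 1.78% lower. The median log2 fold change of the 10 was −0.22. Rxra, the retinoid receptor that pairs with PPARγ, stood at 1542, 1548 and 1596 in the knockdown libraries, against 1527, 1571 and 1591 in the controls, a log2 fold change of −0.0012 (SE 0.13, limma adjusted p = 0.995). Ep300, a histone acetyltransferase that assists C/EBP and PPAR factors, stood at 1529, 493 and 1817 in the knockdown libraries, against 1921, 1972 and 1982 in the controls (log2 fold change −0.82, limma adjusted p = 0.398). Its low value was again in knockdown replicate 2. Without that library Ep300 passed (limma log2 fold change −0.23, adjusted p = 0.0147). In that fit 4 of the 10 were called lower and 1 higher, against 26.1% and 23.8% of all tested genes. The median of the 10 was then −0.06.

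Of 16 other tested pro-adipogenic regulators, 1 rose and 1 fell, where 3.20% of all tested genes were called higher and 1.78% lower. The median log2 fold change of the 16 was −0.38 (0.01 without knockdown replicate 2). Zfp467, a zinc finger gene that favours fat over bone fate, stood at 295, 238 and 269 in the knockdown libraries, against 60.6, 75.2 and 66.8 in the controls. It rose 3.96-fold (limma log2 fold change 1.97, SE 0.18, adjusted p = 0.00839), with the groups far apart. Klf5, a KLF activator of Pparg, stood at 25.4, 29.8 and 25.6 in the knockdown libraries, against 80.8, 62.6 and 53.3 in the controls. It fell 2.44-fold (limma log2 fold change −1.24, SE 0.23, adjusted p = 0.0425), at levels that rest on few reads in knockdown replicate 2. Without that library 5 of the 16 were called lower and 1 higher, against 26.1% and 23.8% of all tested genes.

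Of 19 tested anti-adipogenic regulators, 2 rose and 0 fell (2 and 1 at an unadjusted p under 0.05), with a median log2 fold change of −0.33. Of all tested genes, 3.20% were called higher and 1.78% lower. Gata3, encoding a GATA factor that restrains Pparg in preadipocytes, stood at 81.4, 110 and 78.2 in the knockdown libraries, against 35.7, 32.6 and 28.5 in the controls (limma log2 fold change 1.44, SE 0.22, adjusted p = 0.0259). Hes1, a repressor induced by Notch, stood at 427, 761 and 427 in the knockdown libraries, against 139.8, 168 and 185 in the controls (limma log2 fold change 1.66, SE 0.28, adjusted p = 0.0337). In both genes all 3 knockdowns exceeded all 3 controls. Without knockdown replicate 2, 7 of the 19 were called higher and 5 lower, against 23.8% and 26.1% of all tested genes. The median log2 fold change of the 19 was then −0.06. Gata2, named after its values were seen, was among the 7. It stood at 818, 451 and 751 in the knockdowns and 489.7, 405 and 475 in the controls. With all libraries Gata2 did not pass the test, and its value in knockdown replicate 2 lay within the control range. The 5 called lower without that library were Klf2, Klf3, Zfp521, Ncor1 and Bhlhe40, also named after their values were seen.

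Relatives of the factors were counted in the same way. The lists overlap: Klf2, Klf3, Klf4, Klf5, Klf6, Klf7, Klf9 and Zfp521 are also among the pro- or anti-adipogenic regulators. Klf5 is thus counted as a fall in both places. Of 17 tested paralogs, 2 fell and 0 rose (5 and 0 at an unadjusted p under 0.05). Of all tested genes, 1.78% were called lower and 3.20% higher. The median log2 fold change of the paralogs was −0.67 with all libraries and −0.39 without knockdown replicate 2. Without that library 10 were called lower and 2, Ebf3 and Klf16, higher, against 26.1% and 23.8% of all tested genes. With all libraries, 9 paralogs had all 3 knockdowns below all 3 controls and 0 had them above, against 23.7% and 20.5% of all tested genes. The same counts were 4 and 0 of 10 partners, 7 and 1 of 16 pro-adipogenic and 7 and 3 of 19 anti-adipogenic regulators. They were 4 and 3 of 16 adipocyte targets and 7 and 3 of 17 commitment genes. The 2 that fell were Klf5 and Klf13. Klf13, a widely expressed KLF gene, stood at 1153, 629 and 1288 in the knockdown libraries, against 2819, 2775 and 2939 in the controls (2.78-fold lower, limma log2 fold change −1.54, SE 0.29, adjusted p = 0.0462). A count of the Klf genes as a family was not among the planned results. Of the 14 tested Klf genes, Klf15 included, 13 had a negative log2 fold change with all libraries, as did 49.7% of all tested genes. The median of the 14 was −0.71. Without knockdown replicate 2, 9 of the 14 were negative, as were 52.8% of all tested genes, and the median was −0.31. Ebf3 and Zfp521, the nearest relatives of Ebf1 and Zfp423, were named after their values were seen. Ebf3 stood at 1256, 714 and 1217 in the knockdown libraries, against 1016, 992 and 996 in the controls, and Zfp521, a repressor of Zfp423, at 1006, 646 and 984 in the knockdown libraries, against 1582, 1601 and 1701 in the controls. With all libraries neither passed (limma adjusted p = 0.924 for Ebf3 and 0.0785 for Zfp521). In the fit without knockdown replicate 2, Ebf3 was called higher (limma log2 fold change 0.30, adjusted p = 0.000577) and Zfp521 lower (−0.71, adjusted p = 9.40e-07).

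**Figure D5:**
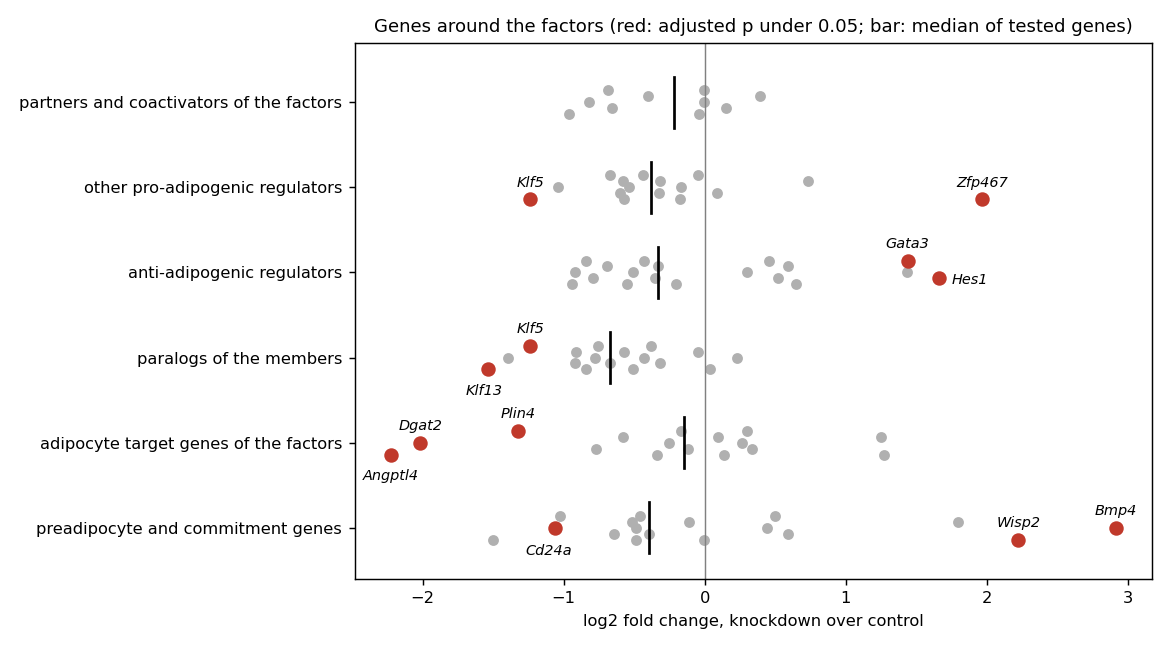
Log2 fold change, knockdown over control, of every tested gene in 6 lists of genes around the factors; red points passed limma at an adjusted p under 0.05 and are named, grey points did not, and the black bar is the median of the tested genes. Plin4, Dgat2 and Angptl4 are the called adipocyte targets, all below 0.

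Among the targets of the factors, 3 genes of lipid handling fell with all libraries. Of 28 adipocyte genes that PPARγ and the C/EBP factors activate, 16 were tested, 3 fell and 0 rose (4 and 2 at an unadjusted p under 0.05). Of all tested genes, 1.78% were called lower and 3.20% higher. The median log2 fold change of the 16 was −0.14. Without knockdown replicate 2, 7 of the 16 were called lower and 4 higher, against 26.1% and 23.8% of all tested genes. The median of the 16 was then −0.07. Angptl4, a PPAR-induced inhibitor of lipoprotein lipase, stood at 61.6, 63.8 and 45.5 in the knockdown libraries, against 319.5, 263 and 227 in the controls. It fell 4.74-fold (limma log2 fold change −2.23, SE 0.22, adjusted p = 0.00946). Dgat2, which encodes an enzyme of the last step of triglyceride synthesis, stood at 201, 132 and 232 in the knockdown libraries, against 683, 742 and 814 in the controls. It fell 3.96-fold (limma log2 fold change −2.02, SE 0.25, adjusted p = 0.0152). Plin4, a lipid droplet coat gene, stood at 1563, 1646 and 1827 in the knockdown libraries, against 3790, 4468 and 4373 in the controls, 2.51-fold lower (limma log2 fold change −1.33, SE 0.15, adjusted p = 0.0114). In all 3 genes the groups were far apart, and knockdown replicate 2 lay close to the other knockdowns in Angptl4 and Plin4.

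Other targets did not pass the test with all libraries or were scarcely detected. Fabp4 and Lpl, a fatty acid carrier gene and the lipoprotein lipase gene, were named after their values were seen. Fabp4 stood at 50.3, 162 and 49.03 in the knockdown libraries, against 33.1, 30.1 and 27.1 in the controls, and Lpl at 173, 316 and 175 in the knockdown libraries, against 67.0, 105 and 98.8 in the controls. Both were higher in all 3 knockdowns than in all controls and missed the threshold with all libraries (limma adjusted p = 0.233 and 0.0990). Both were called higher without knockdown replicate 2, Fabp4 with a limma log2 fold change of 0.71 (adjusted p = 0.0142) and Lpl with one of 0.97 (adjusted p = 0.00107). Adipoq, the adiponectin gene, was under the level tested, at 1.13, 0 and 1.42 in the knockdown libraries, against 11.1, 5.01 and 9.03 in the controls. The authors' deposited table lists it as 9.70-fold lower. The knockdown values of Adipoq lie under the level of 3 reads in those libraries (1.70, 12.8 and 2.13). Several defining fat cell genes were at or near 0, with Plin1, Lep and Cfd at 0 in all 6 libraries and Cidec and Retn at no more than 1 read in any. Other mature adipocyte markers were detected, with Lipe at 189 to 253 and Gpd1 at 14.7 to 52.6 over the 6 libraries. Lipe was the largest part of the marker sum in each library. The summed level of 10 mature adipocyte markers was 259.6 to 438 in the knockdowns and 299 to 328 in the controls. The highest of these sums was that of knockdown replicate 2, and the sums of knockdown replicates 1 and 3 lay below every control sum.

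Of 17 tested genes of commitment, 2 rose and 1 fell (3 and 5 at an unadjusted p under 0.05). Of all tested genes, 3.20% were called higher and 1.78% lower. The median log2 fold change of the 17 was −0.39. With knockdown replicate 2 left out, 4 of the 17 were called higher and 7 lower, against 23.8% and 26.1% of all tested genes. The median of the 17 was then −0.13. Bmp4, the signal that commits C3H10T1/2 cells to the fat lineage, stood at 5622, 5222 and 4638 in the knockdown libraries, against 617, 704 and 722 in the controls (limma log2 fold change 2.92, SE 0.15, adjusted p = 0.00287). Wisp2, which encodes a secreted protein reported to hold ZFP423 in the cytoplasm, stood at 2889, 7440 and 2597 in the knockdown libraries, against 812, 812 and 827 in the controls (limma log2 fold change 2.22, SE 0.42, adjusted p = 0.0446). Its highest value, in knockdown replicate 2, was more than 2 times the other knockdowns. Cd24a, a surface protein gene of early fat precursors, fell, at 221, 191 and 246 in the knockdowns against 439, 423 and 507 in the controls (limma log2 fold change −1.06, SE 0.17, adjusted p = 0.0289). Pdgfra, the receptor gene that marks fat precursors, was named after its values were seen and stood at 2488, 731 and 2355 in the knockdown libraries, against 5113, 4262 and 4432 in the controls. It did not pass with all libraries (limma log2 fold change −1.50, adjusted p = 0.171) and passed without knockdown replicate 2 (−0.92, adjusted p = 1.78e-06).

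These lists gave 11 genes called in all, and all 11 were called again without knockdown replicate 2. Without knockdown replicate 3 the call remained for 4 of them (Angptl4, Bmp4, Dgat2 and Zfp467), without knockdown replicate 1 for 1 (Bmp4), and without any one of control replicates 1, 2 and 3 for 0. The fits without a control called 0 of all tested genes in either direction. Total scaling kept 7 of the 11 and lost Dgat2, Cd24a, Klf13 and Klf5, and the length correction kept 7 and lost Plin4, Klf5, Klf13 and Wisp2. With a mean of at least 50 required, 8 were called; Klf13 and Wisp2 did not pass and Klf5 was not tested. Leukocyte and epithelial markers were low, summing to 97.4 to 221 and 19.2 to 42.5 in the knockdowns and to 101 to 125 and 17.5 to 31.6 in the controls, with Emr1, Cd3e and Tyrobp at 0 in all libraries. Endothelial markers summed to 293 to 850.3 in the knockdowns and 160 to 165 in the controls, from Egfl7 and Tek above all, with Tie1 and Cldn5 at 0. For each of these other cell types the highest knockdown sum was that of knockdown replicate 2. The part of these other cell types in the results was not tested.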

How the data were processed

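RNA was isolated with Trizol and sequenced after Illumina TruSeq preparation, per the labels' protocols. The submitters' processing notes name Bowtie 1.0.0, RSEM 1.2.12 and the build mm9; the sources used here give no annotation or strand setting. The authors deposited a normalized signal per gene and library (estimated counts divided by a factor per library) and, in a second table of differential genes, a fold ratio. Reads per library were estimated from the lowest step of each column; 88.3 to 90.3% of values up to 20 reads were whole multiples within 0.1 read, so no count test was run. Genes with a mean of at least 10 were tested on log2(value + 1), which understates changes of low genes. The test was limma 3.58.1 in R 4.3.3 (trend and robust options, two-sided, Benjamini-Hochberg over 12085 genes). The fit was run on simulated data with independent noise of the same spread in all libraries. That simulation held no shifted library such as knockdown replicate 2, so it cannot speak to that shift. Ratios used exact permutation tests (scipy 1.17.1). Members and lists were chosen with earlier results of these data known. Genes named are the 8 factors, Ring1 and Rnf2; per list up to 4 called genes, or the 2 most abundant if none was called; and the 2 genes most like each called factor. Within each group, every pair of libraries differed by more than sampling noise (chi-square over degrees of freedom at least 1.51). Helz2 of the partners list was not matched to a row; Gpr120 and Emr1 are the table's older symbols of Ffar4 and Adgre1. Transcript lengths are medians of protein-coding transcripts in GENCODE M21; promoters come from RefSeq. Alternatives were other pseudocounts, filters and scalings, variance options, library weights, a length correction, a replicate block and leaving out each library.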

Additional observations from a re-analysis of the deposited data

How the results depend on the processing

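Of the factors, Pparg, Cebpa, Cebpd and Ebf1 kept their direction in all 16 alternatives, and Ebf2 in all 15 in which it was tested. With pseudocounts of 0.5 or 5, no filter or one at 50 (which leaves out Klf15 and Ebf2), upper-quartile scaling or no trend and robust options, members called stayed at 1 lower and 0 higher. Total scaling, which moved the median of all genes to −0.14, called 0 members lower, 184 genes higher and 118 lower. The replicate block called 0 members lower and 0 genes in either direction (1866 at an unadjusted p under 0.05). With it no factor (Pparg adjusted p = 0.1501) and 0 of the 11 called genes of the lists passed limma. Deviations of same-numbered libraries from their group means correlated at r = 0.17, −0.05 and −0.05. Of all knockdown and control pairings, 0.17 was the highest value. Knockdown replicate 2 shifts the knockdown means, so these values cannot decide whether the numbers mark pairs. The main test treated the libraries as unpaired, and its calls rest on that assumption. The length correction called 1 member higher (Cebpd), 599 genes higher and 336 lower. Library weights called 4 members higher and 3 lower, and 4214 genes higher and 4596 lower, but their estimation did not converge and put a weight of 211.7 on knockdown replicate 1, so those calls carry no weight here. Leaving out 1 library gave 0 to 2 members called higher and 0 to 2 lower, and 0 to 2855 genes higher and 0 to 3136 lower. Signs turned in values that were not called in the main test. Some turned values passed in their own fit, namely Zfp423 without knockdown replicate 2 (limma adjusted p = 0.0357) and Zfp423 and Klf15 with library weights. Cebpb became −0.13 (total scaling), −0.17 (length correction), and −0.12, −0.02 and −0.03 without knockdown replicate 1 or 3 or control replicate 1. Klf15 became 0.57 (weights), and ranged from −0.55 to 0.19 with 1 library left out (0.05 without control replicate 1). Zfp423 became 0.41 (weights) and 0.035 (length correction), and ranged from −0.52 to 0.32 (without knockdown replicate 2). With 1 library left out, the difference in the log2 ratio of Cebpa to Cebpb ranged from −0.37 to 0.0038 and that of Ebf1 to Ebf2 from −0.40 to 0.18. The causes were not tested, except that fewer samples enter the fits that leave out a library. Depth limits Klf15 and Ebf2 most, since 3 reads correspond to 12.8 in knockdown replicate 2 and 7.52 in control replicate 2; floors and intervals cover counting error only.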
